A study of Mus musculus with 12 samples.

Results

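The mitochondrially encoded genes were taken as every feature of the expected-count table whose gene symbol starts with mt-, which gave 37 of 55492 features: 13 protein genes, 2 ribosomal RNA genes and 22 transfer RNA genes. Of these 37, 15 had 10 or more counts in at least 3 of the 12 libraries, namely the 13 protein genes and both ribosomal RNA genes, and the same 15 passed the filter on low counts and were tested. The 22 transfer RNA genes had no count in any library. RNA was sequenced from cultured CCN6KOT cells. The labels describe them as primary cells and as a breast cancer line, from a mouse breast tumour with the condition Spindle Metaplastic, and all groups went through lentiviral transduction and puromycin selection. The 4 groups of 3 libraries each were cells with DNTCF4, which the series calls a dominant negative beta-catenin construct, plus EZH2 (DNTCF4_EZH2), cells with DNTCF4 plus a construct labelled SET (DNTCF4_SET), cells with DNTCF4 and a vector (DNTCF4), and cells with control lentivirus (Vector). EZH2 and SET are the rescue proteins of the design. The titles call the Vector libraries PPGS-Vector and the DNTCF4 libraries DNTCF4-Vector, and the labels expand neither PPGS nor SET. The sources used here give no age or strain of the animal, and all groups share the 1 line. No label says whether the 3 libraries of a group are separate cultures. The p-values therefore measure only the spread among libraries, and that spread may be technical.

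The mitochondrial genome of the mouse is a small circle that is transcribed from both strands as long precursors. These are then processed into messenger, ribosomal and transfer RNAs. Its protein genes encode subunits of the respiratory chain (complexes I, III and IV) and of the ATP synthase, while complex II and all other subunits come from the nucleus. Because the genes of a strand share a precursor, the levels of their RNAs also depend on processing, stability and decay, which nuclear genes carry out. TCF4, the product of Tcf7l2, is a DNA-binding partner of beta-catenin at Wnt targets, and EZH2 carries out histone methylation within a Polycomb complex.

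Stretches of mitochondrial sequence have been copied into nuclear chromosomes, and reads from such a pair cannot be told apart where the sequences are the same. A search of the GENCODE M21 transcripts (GRCm38) with the mitochondrial genes found 11 annotated nuclear copies with at least 95% identity over 100 or more bases. Of these, 7 lay side by side on chromosome 1, minus strand, at chr1:24611535-24616197, and covered mt-Co1 in part, mt-Co2, mt-Atp6, mt-Co3, mt-Nd3, mt-Nd4l and the first 876 bases of mt-Nd4. The other 4 lay on chromosomes 2 and 13. The copies of mt-Co2 (Gm28661), mt-Atp6 (Gm10925) and mt-Co3 (Gm28437) on chromosome 1 matched over 681, 678 and 783 bases without a difference, and the following first 60 bases, with the start codon in capitals, stand for both members of each pair. They lie at chrM:7013-7072 and chr1:24615506-24615565 for mt-Co2, chrM:7927-7986 and chr1:24614592-24614651 for mt-Atp6, and chrM:8607-8666 and chr1:24613912-24613971 for mt-Co3.
mt-Co2 and Gm28661: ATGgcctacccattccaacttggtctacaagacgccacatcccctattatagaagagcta
mt-Atp6 and Gm10925: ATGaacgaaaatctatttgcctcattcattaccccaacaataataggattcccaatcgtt
mt-Co3 and Gm28437: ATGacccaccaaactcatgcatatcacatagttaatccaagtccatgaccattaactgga

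The copy of mt-Nd3 (Gm28438) and that of mt-Co1 (Gm29216) each differed by 1 base. Gm28438 matched over 345 bases with the substitution T3C, and Gm29216 over 483 bases with A1066T, counted from 1 at the first base of the mitochondrial gene, with the mitochondrial base first. The pairs are shown around that base, which is in capitals, at chrM:9459-9486 against chr1:24613092-24613119 and at chrM:6390-6418 against chr1:24616160-24616188.
mt-Nd3: atTaacctgtacactgttatcttcatta
Gm28438: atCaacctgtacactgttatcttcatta
mt-Co1: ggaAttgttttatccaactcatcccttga
Gm29216: ggaTttgttttatccaactcatcccttga

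Neighbouring genes on the circle also share bases. The end of mt-Atp8 and the start of mt-Atp6 overlap by 43 bases, shown in capitals within chrM:7915-7981, and those of mt-Nd4l and mt-Nd4 by 7 bases, in capitals within chrM:10155-10185. The end of mt-Nd5 overlaps the end of mt-Nd6, the 1 protein gene on the minus strand, by 14 bases. The sources used here do not say whether counting used strand, so reads from these overlaps, and reads from the other strand of mt-Nd6, cannot be told apart. Overlapping genes are given gene by gene below, and whether their reads come from the same RNA was not tested.
mt-Atp8/mt-Atp6: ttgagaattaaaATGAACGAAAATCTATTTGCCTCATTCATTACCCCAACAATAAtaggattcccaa
mt-Nd4l/mt-Nd4: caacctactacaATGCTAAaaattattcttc

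The transfer RNA genes are 59 to 75 bases long, 14 on the plus and 8 on the minus strand. The shortest is mt-Ts2 (chrM:11613-11671) and the longest mt-Tl1 (chrM:2676-2750), shown whole as the extremes of the undetected genes. With a floor of 3 counts, a count of 0 allows up to 0.0882 CPM (counts scaled to the library's total) in the deepest library and 0.127 CPM in the shallowest, from counting error alone. The sources used here do not say which fragment sizes were kept, and a count of 0 does not show that these RNAs were absent from the cells.
mt-Ts2: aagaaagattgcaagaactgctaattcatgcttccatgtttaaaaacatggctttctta
mt-Tl1: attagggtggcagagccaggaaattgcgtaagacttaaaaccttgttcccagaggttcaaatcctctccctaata

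Library totals ran from 23597545 to 33999982 counts. The listed markers did not all point one way. Of the mesenchymal markers, Vim and Fn1 had 613 to 1062 and 3557 to 9066 CPM over the libraries, while Cdh2 had 1.38 to 2.48 CPM. Zeb1 had 71.4 to 94.9, Prrx1 19.2 to 121, S100a4 4.2 to 34.3 and Acta2 6.82 to 32.4 CPM. In mean, Prrx1 (87.4 and 19.8 CPM), Zeb1 and Cdh2 were higher in DNTCF4 than in Vector libraries. Vim, Fn1 (3861 and 8722 CPM), S100a4 (4.59 and 32.1 CPM) and Acta2 (7.15 and 30.3 CPM) were lower. Of the epithelial markers, the keratins Krt8 and Krt18 had 79.7 to 89.6 and 227 to 262 CPM, while Epcam, Cdh1, Krt5 and Krt14 stayed at or below 1.15 CPM. Among markers of other cells, Cd68, a gene of macrophages, had 43.5 to 69.9 CPM, the leukocyte gene Ptprc at most 0.592 CPM, and the rest at most 2.76 CPM (Cdh5). Counts on Ezh2 averaged 450 CPM in DNTCF4_EZH2, 546 CPM in DNTCF4_SET, 65.4 CPM in DNTCF4 and 57.9 CPM in Vector libraries, so they were high with either second construct. Those on Tcf7l2 averaged 45.5, 35.2, 39.8 and 11 CPM in the same order of groups. DNTCF4 replicate 1 stood apart: its counts differed most from those of its group (chi-square per degree of freedom 19 against replicate 2 and 12.2 against replicate 3, and 3.17 between replicates 2 and 3). Counts of DNTCF4_EZH2 replicates 1 and 2 also differed more than most pairs (14.9). Calls of mitochondrial genes and counts over gene lists that involve the DNTCF4 group are therefore given with and without replicate 1, and single nuclear genes where leaving it out changed the call. With copies added and for the nuclear lists, leaving it out is an alternative chosen after seeing the data.

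For 4 of the 15 genes, most counts sat on the nuclear copy. Over all libraries, the copies held 96.4% of the counts of mt-Nd3 and its copy together, 93.2% for mt-Atp6, 88.0% for mt-Co2 and 87.8% for mt-Co3. The share was 18.6% for mt-Nd4, 11.9% for mt-Nd4l and 0.675% for mt-Co1, and 0.0167% for mt-Nd2 and 0.00475% for mt-Nd5. The counting program shares reads among features by a model, so each such split depends on it.

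The split itself moved between replicates. For mt-Co3, the copy's share ran from 84.5% to 93.2% over the 12 libraries, and in DNTCF4 replicate 2 and replicate 3 mt-Co3 had 147 and 60.3 CPM as deposited but 947 and 885 CPM with the copy added. The mean coefficient of variation within groups was 3.86% with copies added and 30.5% as deposited for mt-Co3, 2.41% and 16.8% for mt-Atp6, 6.4% and 22.7% for mt-Nd3, and 3.95% and 13.3% for mt-Co2. Both versions are therefore given, as deposited and with copies added. RNA from the nuclear copies themselves, if any, is in the sum and cannot be told apart from mitochondrial RNA.

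**Figure D1:**
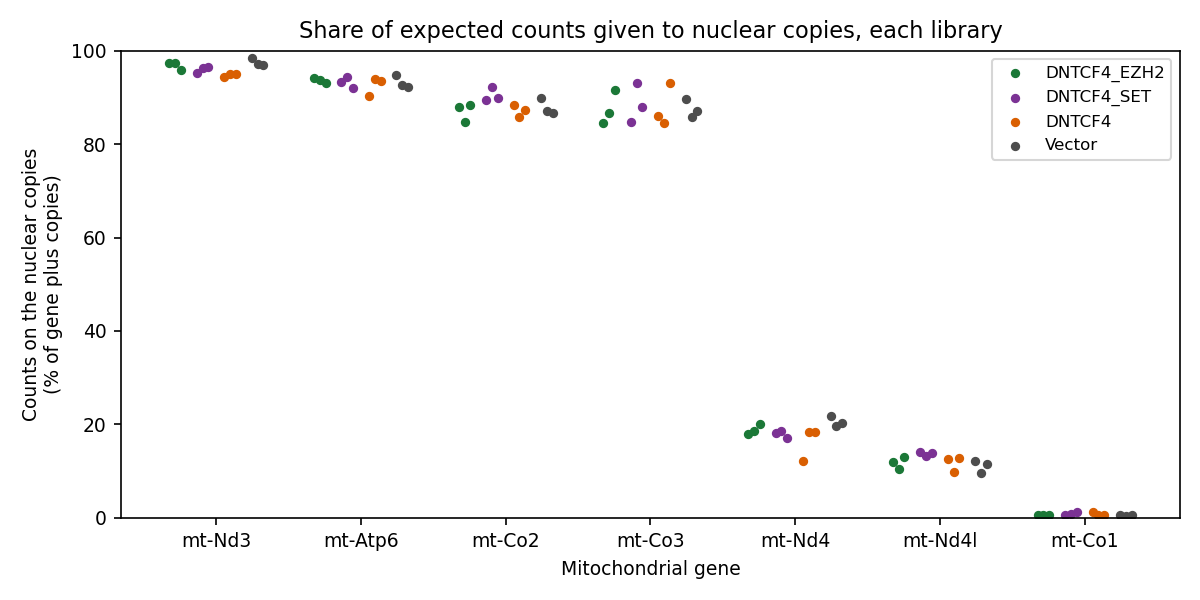
Share of expected counts that fell on the nuclear copies (vertical axis, % of the counts of gene plus copies) for 7 mitochondrial genes, 1 point a library, coloured by group. All 12 libraries lie at or above 84.5% for mt-Nd3, mt-Atp6, mt-Co2 and mt-Co3, and at or below 1.24% for mt-Co1.

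On the scale of CPM per kilobase of gene length, with copies added and averaged over the 12 libraries, mt-Co1, the catalytic subunit of cytochrome c oxidase (complex IV), had the highest level at 4963. mt-Co2 (1840), another core subunit of complex IV, and mt-Atp6 (1759), a membrane subunit of the ATP synthase, followed. Below them came mt-Nd1 (1420), mt-Co3 (1262), mt-Cytb (1004), mt-Nd4 (994), mt-Nd2 (811) and mt-Nd5 (807). The ribosomal RNA mt-Rnr2 had 713 CPM per kilobase and mt-Rnr1 426, both below most protein genes. The labels give total RNA as the molecule, and the sources used here do not say how ribosomal or polyadenylated RNA was selected.

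Among the protein genes, the lowest values per kilobase were those of mt-Nd4l (511), mt-Nd6 (466), mt-Atp8 (399) and mt-Nd3 (148). These are also the shortest protein genes, at 297, 519, 204 and 348 bases in that order. The scale divides by full gene length without regard to fragment size, and whether the order went with length was not tested. mt-Nd4l and mt-Atp8 overlap genes with higher values, and these counts do not show a separate messenger RNA for each. Neighbours in this order were often not separated by the spread over libraries. Per kilobase, mt-Cytb and mt-Nd4 averaged 1081 ± 23.9 and 1068 ± 14.8 in DNTCF4_EZH2, 836 ± 28.0 and 845 ± 41.4 in DNTCF4_SET, 901 ± 66.7 and 917 ± 76.7 in DNTCF4, and 1198 ± 12.6 and 1147 ± 19.9 in Vector libraries (SD, n = 3 each). As deposited, without the copies, mt-Co2 had 220, mt-Co3 153, mt-Atp6 120 and mt-Nd3 5.28 CPM per kilobase, the lowest 4 of the 15.

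**Figure D2:**
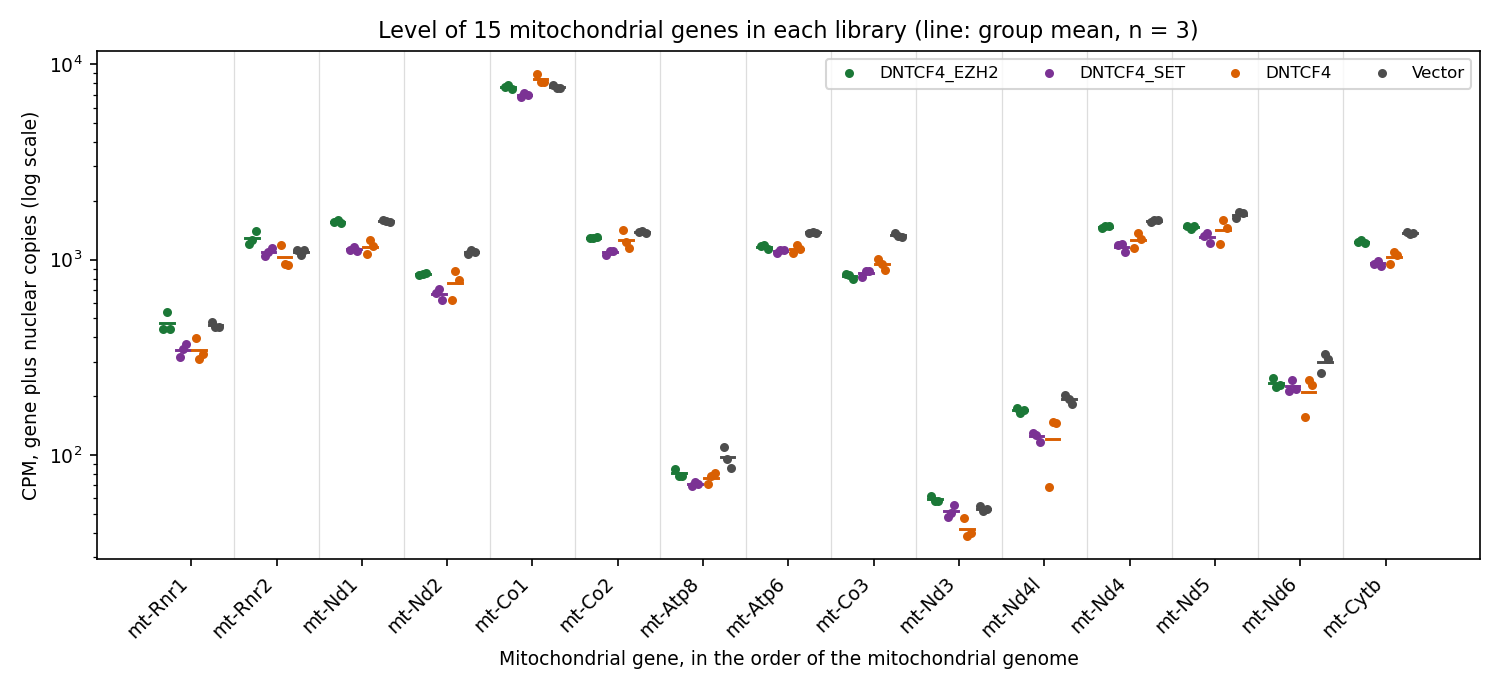
CPM of each of the 15 detected mitochondrial genes with nuclear copies added (vertical axis, log scale), 1 point a library, grouped from left to right as DNTCF4_EZH2, DNTCF4_SET, DNTCF4 and Vector, with a line at each group's mean (n = 3). DNTCF4 points lie above the Vector points at mt-Co1 and below them at mt-Nd1, mt-Co3, mt-Nd3 and mt-Cytb, and the single low DNTCF4 point at mt-Nd4l is replicate 1.

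The effect of the dominant negative TCF4 construct was read from DNTCF4 against Vector. With copies added, 13 of the 15 genes fell in DNTCF4, to between 0.626 times (mt-Nd4l) and 0.91 times (mt-Co2) the Vector level, and mt-Co1, the gene with the highest level, rose 1.1-fold. As deposited, 2 of the 15 tested genes rose and 9 fell. Of the 15052 genes tested, 29.5% rose and 28% fell. With copies added, 1 rose, 13 fell and 1 (mt-Rnr2) did not pass, where the backgrounds over 15043 genes were again 29.5% and 28%. The median log2 change of the 15 genes was -0.35 in both versions, beside 0.01 over all genes tested.

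Among the complex I subunits, mt-Nd1, a membrane-arm core subunit near the site of quinone binding, had 1066, 1256 and 1177 CPM in the DNTCF4 libraries, against 1587, 1583 and 1566 CPM in the Vector libraries. All DNTCF4 libraries were below all Vector libraries (log2 change -0.44, SE 0.05, edgeR quasi-likelihood test, adjusted p = 1.07e-06; -0.38 without DNTCF4 replicate 1). mt-Nd2, another membrane-arm subunit, had 618, 873 and 783 CPM in DNTCF4 and 1072, 1118 and 1093 CPM in Vector libraries. It too fell without overlap (log2 change -0.53, SE 0.09, adjusted p = 8.31e-05 in edgeR), with replicate 1 lowest and a log2 change of -0.41 without it.

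mt-Nd4l, a small membrane subunit, had the largest fall of the 15 genes with all libraries. Its level was 59.8, 133 and 127 CPM in DNTCF4 libraries, against 178, 175 and 161 CPM in Vector libraries. Replicate 1 lay far below the other DNTCF4 libraries, and the groups did not overlap. The log2 change was -0.68 (SE 0.19, edgeR adjusted p = 0.00536), and -0.40 without DNTCF4 replicate 1 (adjusted p = 2.32e-07). Without that library the falls of mt-Rnr1 and, with its copy, mt-Co3 were larger (-0.54 each, and -0.66 for mt-Co3 as deposited). So was that of mt-Nd3 with its copy (-0.44), and that of mt-Nd2 was about the same (-0.41). The partner of mt-Nd4l in the overlap, mt-Nd4, averaged 1055 ± 51.2 CPM in DNTCF4 and 1255 ± 38.7 CPM in Vector libraries as deposited (SD, n = 3 each; log2 change -0.25), and fell by 0.32 on the log2 scale with its copy added (-0.22 and -0.26 without DNTCF4 replicate 1). The long gene mt-Nd5 averaged 1414 ± 204 CPM in DNTCF4 and 1699 ± 65.4 CPM in Vector libraries (log2 change -0.27, adjusted p = 0.00769 in edgeR), and the change was -0.16 without DNTCF4 replicate 1 (adjusted p = 0.0068).

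mt-Nd6, the only protein gene on the minus strand, moved in the same direction, where reads from the plus strand cannot be told apart. It had 157, 243 and 229 CPM in DNTCF4, against 264, 329 and 309 CPM in Vector libraries. The groups did not overlap, and its log2 change was -0.52 (SE 0.12, edgeR adjusted p = 0.00183), or -0.35 without DNTCF4 replicate 1.

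mt-Nd3 changed direction with the handling of its copy. As deposited it had 2.71, 1.94 and 1.98 CPM in DNTCF4, against 0.791, 1.44 and 1.55 CPM in Vector libraries, a log2 change of 0.81 (SE 0.25, edgeR adjusted p = 0.0129) that did not pass without Vector replicate 1 (0.57, adjusted p = 0.0582). With Gm28438 added it had 47.6, 38.5 and 39.9 CPM in DNTCF4 and 54.8, 51.6 and 52.7 CPM in Vector libraries. The summed level fell without overlap (log2 change -0.34, SE 0.07, adjusted p = 0.000869; -0.44 without DNTCF4 replicate 1). The rise as deposited rests on 633 counts over 12 libraries, against 17144 on the copy.

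mt-Cytb, the mitochondrial subunit of complex III and the only one of that complex encoded there, had 945, 1091 and 1057 CPM in DNTCF4, against 1384, 1355 and 1371 CPM in Vector libraries. It fell in all libraries relative to all Vector libraries (log2 change -0.41, SE 0.05, edgeR adjusted p = 1.85e-06), and by 0.35 on the log2 scale without DNTCF4 replicate 1.

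The 3 complex IV subunits did not move together. mt-Co1 had 8819, 8080 and 8069 CPM in DNTCF4, against 7751, 7576 and 7535 CPM in Vector libraries. Every DNTCF4 library was above every Vector library, and the rise was small (log2 change 0.13, SE 0.04, edgeR adjusted p = 0.00865), with a value of 0.08 without DNTCF4 replicate 1 (adjusted p = 0.0413). At most 1.24% of its counts lay on copies in any library. mt-Co3, a further core subunit, had 1003, 947 and 885 CPM with its copy in DNTCF4 and 1362, 1327 and 1299 CPM in Vector libraries. That sum fell without overlap (log2 change -0.49, SE 0.04, adjusted p = 1.85e-07 in edgeR), whereas mt-Co3 as deposited passed only without DNTCF4 replicate 1 (-0.51, SE 0.30, adjusted p = 0.157 with it, and -0.66, adjusted p = 0.0491 without it).

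mt-Co2 with its copies had 1414, 1228 and 1142 CPM in DNTCF4, against 1393, 1403 and 1362 CPM in Vector libraries. DNTCF4 replicate 1 was the highest of the 6, so the groups overlapped. The log2 change was -0.14 (SE 0.06, edgeR adjusted p = 0.0476), -0.23 without DNTCF4 replicate 1 (adjusted p = 7.25e-06), and it did not pass without any 1 of the other 5 libraries (adjusted p from 0.0688 to 0.328). Set against the other protein genes of the same library, mt-Co1 held 50.3%, 44.7% and 46.4% of the counts on the 13 protein genes and their copies in DNTCF4, against 39.4%, 38.4% and 38.7% in Vector libraries, with no overlap.

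For the ATP synthase, mt-Atp6 with its copy had 1087, 1195 and 1136 CPM in DNTCF4, against 1377, 1386 and 1369 CPM in Vector libraries. That is a fall without overlap (log2 change -0.27, SE 0.04, edgeR adjusted p = 1.09e-05; adjusted p = 1.63e-06 without DNTCF4 replicate 1). As deposited, where 93.2% of these counts are left on the copy, mt-Atp6 passed only without that library (log2 change -0.13, SE 0.16, adjusted p = 0.512 with it, and -0.33, adjusted p = 0.0295 without it). mt-Atp8, the short subunit with no annotated copy found, averaged 76.7 ± 5.07 CPM in DNTCF4 and 97.4 ± 12.2 CPM in Vector libraries (SD, n = 3 each; log2 change -0.35, adjusted p = 0.000881), and fell by 0.30 on the log2 scale without replicate 1.

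Of the ribosomal RNAs, 1 passed with all libraries. mt-Rnr1, the RNA of the small ribosomal subunit, had 399, 309 and 329 CPM in DNTCF4, against 480, 454 and 454 CPM in Vector libraries, and fell without overlap (log2 change -0.42, SE 0.09, edgeR adjusted p = 0.000842; -0.54 without DNTCF4 replicate 1). mt-Rnr2, the RNA of the large subunit, had 1183, 955 and 944 CPM in DNTCF4 and 1125, 1062 and 1116 CPM in Vector libraries. Here replicate 1 was above all Vector libraries and the other DNTCF4 libraries below them. The test did not pass with all libraries (log2 change -0.10, SE 0.07, adjusted p = 0.271) and gave -0.22 without DNTCF4 replicate 1 (adjusted p = 0.000839).

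Without DNTCF4 replicate 1, 2 of the 15 genes rose and 12 fell as deposited, beside 28.2% and 31% of all genes, and with copies added 1 rose and 14 fell, beside 28.2% and 31.1%. The direction of each gene with copies added was the same as with that library.

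**Figure D3:**
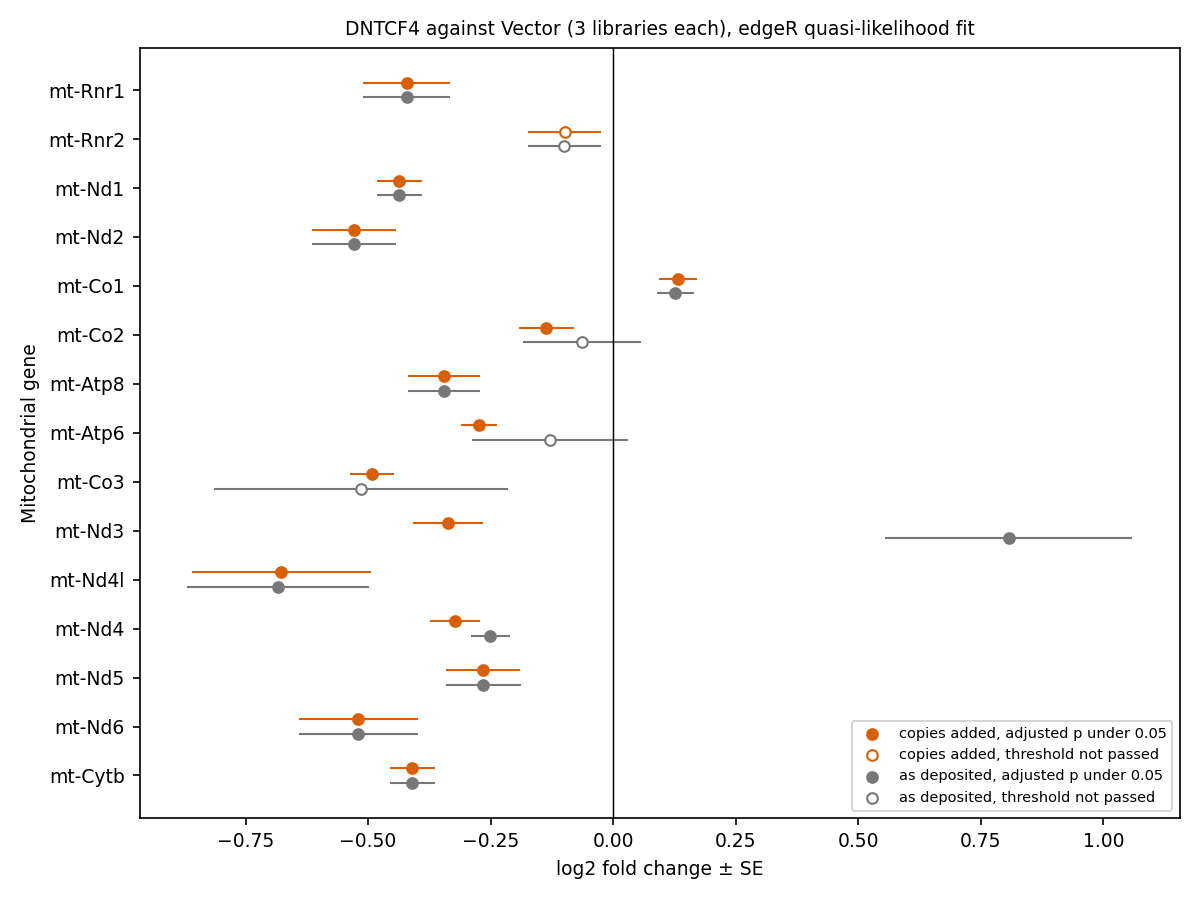
Log2 fold change of DNTCF4 against Vector (horizontal axis, ± SE of the edgeR fit, 3 libraries a group) for the 15 detected mitochondrial genes in genome order. Orange marks have nuclear copies added and grey marks are as deposited, filled where the adjusted p is under 0.05; mt-Co1 is the 1 orange mark right of 0 (0.13), and mt-Nd3 lies on opposite sides in the 2 versions.

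Other measures moved with this comparison. Nuclear genes whose longest transcript has up to 1000 bases deviated by 0.07 to 0.17 on the log2 scale in Vector libraries, against -0.08 to -0.02 in DNTCF4 libraries, and 11.2% of these 1152 genes rose and 30.7% fell in DNTCF4 against Vector, with a median log2 change of -0.17. Of nuclear genes over 5000 bases, 22.0% rose and 11.7% fell in DNTCF4_SET against DNTCF4, and 17.4% and 13.2% in DNTCF4_EZH2 against DNTCF4. Counts fell on 69 to 81 olfactory and vomeronasal receptor genes in DNTCF4 and on 550 to 774 in Vector libraries, genes of sensory neurons. With a second construct they fell on 241 to 311 in DNTCF4_EZH2 and 325 to 472 in DNTCF4_SET libraries, so those comparisons differed in this measure too. Counts on the Cre sequence were 6, 4 and 6 in DNTCF4, against 36, 32 and 15 in Vector libraries. The part of these differences between libraries in the mitochondrial results was not tested. The 15 mitochondrial genes are 204 to 1824 bases long, and whether their changes went with length was not tested.

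Adding EZH2 to the dominant negative construct was read from DNTCF4_EZH2 against DNTCF4. Both ribosomal RNAs, mt-Nd1, mt-Nd4 and mt-Cytb rose and mt-Co1 fell as deposited, which made 5 rises and 1 fall among 15, beside 13% rises and 12.5% falls among all genes tested. With copies added there were 6 rises (mt-Nd3 in addition) and 2 falls (mt-Co3 in addition), beside 13% and 12.6%. This comparison shares its DNTCF4 libraries with the one above, so a high or low value in them moves both, in opposite directions.

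mt-Nd1 had 1564, 1590 and 1534 CPM in DNTCF4_EZH2 libraries, against the 1066 to 1256 CPM of DNTCF4 libraries. It rose without overlap (log2 change 0.42, SE 0.05, edgeR adjusted p = 8.43e-06; 0.36 without DNTCF4 replicate 1), and the DNTCF4_EZH2 values lie beside the 1566 to 1587 CPM of Vector libraries, a pair of groups that was not tested here. mt-Cytb had 1229, 1267 and 1214 CPM in DNTCF4_EZH2, above the 945 to 1091 CPM of DNTCF4 libraries (log2 change 0.26, SE 0.05, adjusted p = 0.000603; 0.20 without DNTCF4 replicate 1) and below the lowest Vector value of 1355 CPM.

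mt-Nd4 averaged 1194 ± 14.3 CPM in DNTCF4_EZH2 and 1055 ± 51.2 CPM in DNTCF4 libraries (SD, n = 3 each), a rise of 0.18 on the log2 scale (edgeR adjusted p = 0.00429; 0.15 without DNTCF4 replicate 1). mt-Nd3 with its copy had 61.8, 58.0 and 58.0 CPM in DNTCF4_EZH2, against 47.6, 38.5 and 39.9 CPM in DNTCF4 libraries, a rise without overlap (log2 change 0.50, SE 0.07, adjusted p = 9.5e-05; 0.60 without DNTCF4 replicate 1). As deposited its change was -0.25 (SE 0.23) and did not pass. mt-Nd4l had 153, 147 and 148 CPM in DNTCF4_EZH2, and its test against DNTCF4 passed only without DNTCF4 replicate 1 (log2 change 0.48, adjusted p = 0.0708 with it, and 0.20, adjusted p = 0.00265 without it).

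mt-Rnr1 had 441, 539 and 444 CPM in DNTCF4_EZH2, against 399, 309 and 329 CPM in DNTCF4 libraries. All of the first were above all of the second (log2 change 0.46, SE 0.09, edgeR adjusted p = 0.0014). mt-Rnr2 had 1205, 1267 and 1400 CPM in DNTCF4_EZH2, against 1183, 955 and 944 CPM in DNTCF4 libraries (log2 change 0.33, SE 0.07, adjusted p = 0.00431). Without DNTCF4 replicate 1, which is the highest DNTCF4 library for both, these log2 changes were 0.57 and 0.44.

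Of the complex IV subunits, mt-Co1 and, with its copy, mt-Co3 fell. mt-Co1 had 7582, 7818 and 7457 CPM in DNTCF4_EZH2, against 8819, 8080 and 8069 CPM in DNTCF4 libraries, so the groups did not overlap (log2 change -0.13, SE 0.04, edgeR adjusted p = 0.0202). That call did not hold without DNTCF4 replicate 1 (-0.09, adjusted p = 0.056), DNTCF4_EZH2 replicate 1 (adjusted p = 0.0552) or DNTCF4_EZH2 replicate 3 (adjusted p = 0.079). mt-Co3 with its copy had 843, 833 and 797 CPM in DNTCF4_EZH2, below the 885 to 1003 CPM of DNTCF4 libraries (log2 change -0.20, SE 0.04, adjusted p = 0.00438; -0.15 without DNTCF4 replicate 1), and further from the 1299 to 1362 CPM of Vector libraries. mt-Co2 with copies averaged 1298 ± 10.3 CPM in DNTCF4_EZH2 and 1261 ± 139 CPM in DNTCF4 libraries (SD, n = 3 each), with overlap. It passed as a rise only without DNTCF4 replicate 1 (log2 change 0.04, adjusted p = 0.637 with it, and 0.13, edgeR adjusted p = 0.0064 without it). mt-Atp6 with its copy averaged 1165 ± 26.7 CPM and 1139 ± 53.9 CPM in the same order, also with overlap.

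Without DNTCF4 replicate 1, the counts were 6 rises and 0 falls as deposited, beside 14.4% and 14.2% of all genes. At an unadjusted p under 0.05 in edgeR, 1 gene, mt-Co1, was lower. With copies added they were 8 rises and 1 fall, beside 14.4% and 14.2%.

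The effect of the SET construct was read from DNTCF4_SET against DNTCF4. As deposited, 0 of the 15 genes rose and 3 fell (mt-Co1, mt-Co2 and mt-Nd4), beside 12.7% and 13.3% of all genes tested. DESeq2 and limma also called 0 rises, and at an unadjusted p under 0.05 in edgeR 0 genes were higher and 4 lower. With copies added, mt-Nd3 rose and mt-Co1, mt-Co2 and mt-Co3 fell, beside 12.7% and 13.4%.

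mt-Co1 had 6750, 7087 and 6880 CPM in DNTCF4_SET, the lowest of the 4 groups, against 8819, 8080 and 8069 CPM in DNTCF4 libraries. It fell without overlap (log2 change -0.27, SE 0.04, edgeR adjusted p = 9.47e-05), and by 0.23 on the log2 scale without DNTCF4 replicate 1. mt-Co2 had 111, 85 and 112 CPM as deposited in DNTCF4_SET, against 166, 174 and 144 CPM in DNTCF4 libraries, a log2 change of -0.65 (SE 0.12, adjusted p = 0.00116). With copies added it had 1059, 1102 and 1109 CPM in DNTCF4_SET, against 1414, 1228 and 1142 CPM in DNTCF4 libraries. The log2 change then was -0.21 (SE 0.06, adjusted p = 0.0117), and -0.12 without DNTCF4 replicate 1 (adjusted p = 0.00769), so its size depends on how reads were shared with Gm28661.

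mt-Co3 with its copy had 819, 876 and 878 CPM in DNTCF4_SET, below all DNTCF4 libraries (log2 change -0.14, SE 0.04, edgeR adjusted p = 0.0313). The call did not hold without DNTCF4 replicate 1 (-0.10, adjusted p = 0.0509) or DNTCF4_SET replicate 1 (adjusted p = 0.124). mt-Nd3 with its copy had 48.2, 50.7 and 55.5 CPM in DNTCF4_SET, above the 38.5 to 47.6 CPM of DNTCF4 libraries (log2 change 0.30, SE 0.07, adjusted p = 0.00642; 0.39 without DNTCF4 replicate 1). mt-Nd4 fell by 0.14 on the log2 scale as deposited (adjusted p = 0.0158), and neither with its copy added (adjusted p = 0.0986) nor without DNTCF4 replicate 2 (adjusted p = 0.0595) or DNTCF4_SET replicate 3 (adjusted p = 0.0789) did this pass.

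mt-Nd1 and mt-Cytb, which rose with EZH2, did not pass with SET when all libraries were used. mt-Nd1 had 1123, 1156 and 1104 CPM in DNTCF4_SET, within the DNTCF4 range (log2 change -0.05, SE 0.05, edgeR adjusted p = 0.477). mt-Cytb had 952, 990 and 926 CPM (log2 change -0.11, SE 0.05, adjusted p = 0.0923). For mt-Rnr1 the values were 319, 349 and 370 CPM in DNTCF4_SET, beside 309 to 399 CPM in DNTCF4 libraries (log2 change 0.00, SE 0.09).

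DNTCF4 replicate 1 decides how many genes fell. Without it 1 gene rose and 8 fell as deposited, beside 15.5% and 15.4% of all genes, and 2 rose and 8 fell with copies added, beside 15.6% and 15.4%. The falls as deposited were then mt-Co1, mt-Co2, mt-Nd1 (-0.11), mt-Nd2 (-0.31), mt-Nd4 (-0.18), mt-Nd4l (-0.28), mt-Nd5 (-0.23) and mt-Cytb (-0.17), in log2 change, and the rise was mt-Rnr2 (0.20). With copies added, that library was the lowest of its group for mt-Nd1, mt-Nd2, mt-Nd4, mt-Nd4l, mt-Nd5, mt-Nd6, mt-Cytb, mt-Atp6 and mt-Atp8, and the highest for mt-Nd3, the 3 complex IV genes and both ribosomal RNAs.

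The groups with a second construct were compared with each other directly. In DNTCF4_EZH2 against DNTCF4_SET, 7 of the 15 genes were higher and 0 lower as deposited, beside 3% and 2.17% of all genes tested. At an unadjusted p under 0.05 in edgeR 11 were higher and 0 lower, and DESeq2 called 8 higher and limma 6, with 0 lower in both. With copies added 6 were higher and 0 lower, beside 2.98% and 2.17%. As deposited, the smallest adjusted p-values were those of mt-Nd1, mt-Cytb and mt-Nd4.

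mt-Nd1 had 1564, 1590 and 1534 CPM in DNTCF4_EZH2, against 1123, 1156 and 1104 CPM in DNTCF4_SET libraries. The groups lay far apart (log2 difference 0.47, SE 0.05, edgeR adjusted p = 2.84e-05). mt-Cytb had 1229, 1267 and 1214 CPM in DNTCF4_EZH2, against 952, 990 and 926 CPM in DNTCF4_SET libraries (log2 difference 0.37, SE 0.05, adjusted p = 0.000227). mt-Nd4 had 1189, 1210 and 1183 CPM in DNTCF4_EZH2, against 968, 983 and 913 CPM in DNTCF4_SET libraries (log2 difference 0.32, SE 0.04, adjusted p = 0.000249).

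mt-Rnr1 was higher by 0.46 on the log2 scale (SE 0.09, edgeR adjusted p = 0.00712), at 441 to 539 CPM in DNTCF4_EZH2 and 319 to 370 CPM in DNTCF4_SET libraries, while mt-Rnr2, also without overlap, did not pass (0.24, adjusted p = 0.0804). mt-Co2 was higher by 0.72 as deposited (adjusted p = 0.00267) and by 0.25 with copies (adjusted p = 0.0155), and with copies the call did not hold without DNTCF4_EZH2 replicate 2 or 3 or DNTCF4_SET replicate 1 (adjusted p from 0.0501 to 0.0592). mt-Nd2 averaged 845 ± 9.02 CPM in DNTCF4_EZH2 and 669 ± 43.7 CPM in DNTCF4_SET libraries (SD, n = 3 each; log2 difference 0.34, adjusted p = 0.0337). mt-Co1 differed by 0.14 (adjusted p = 0.0392) as deposited and did not pass with copies added (adjusted p = 0.052). Neither mt-Nd2 nor mt-Co1 passed when any 1 of the 6 libraries was left out (adjusted p from 0.059 to 0.151 and from 0.0543 to 0.133).

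**Figure D4:**
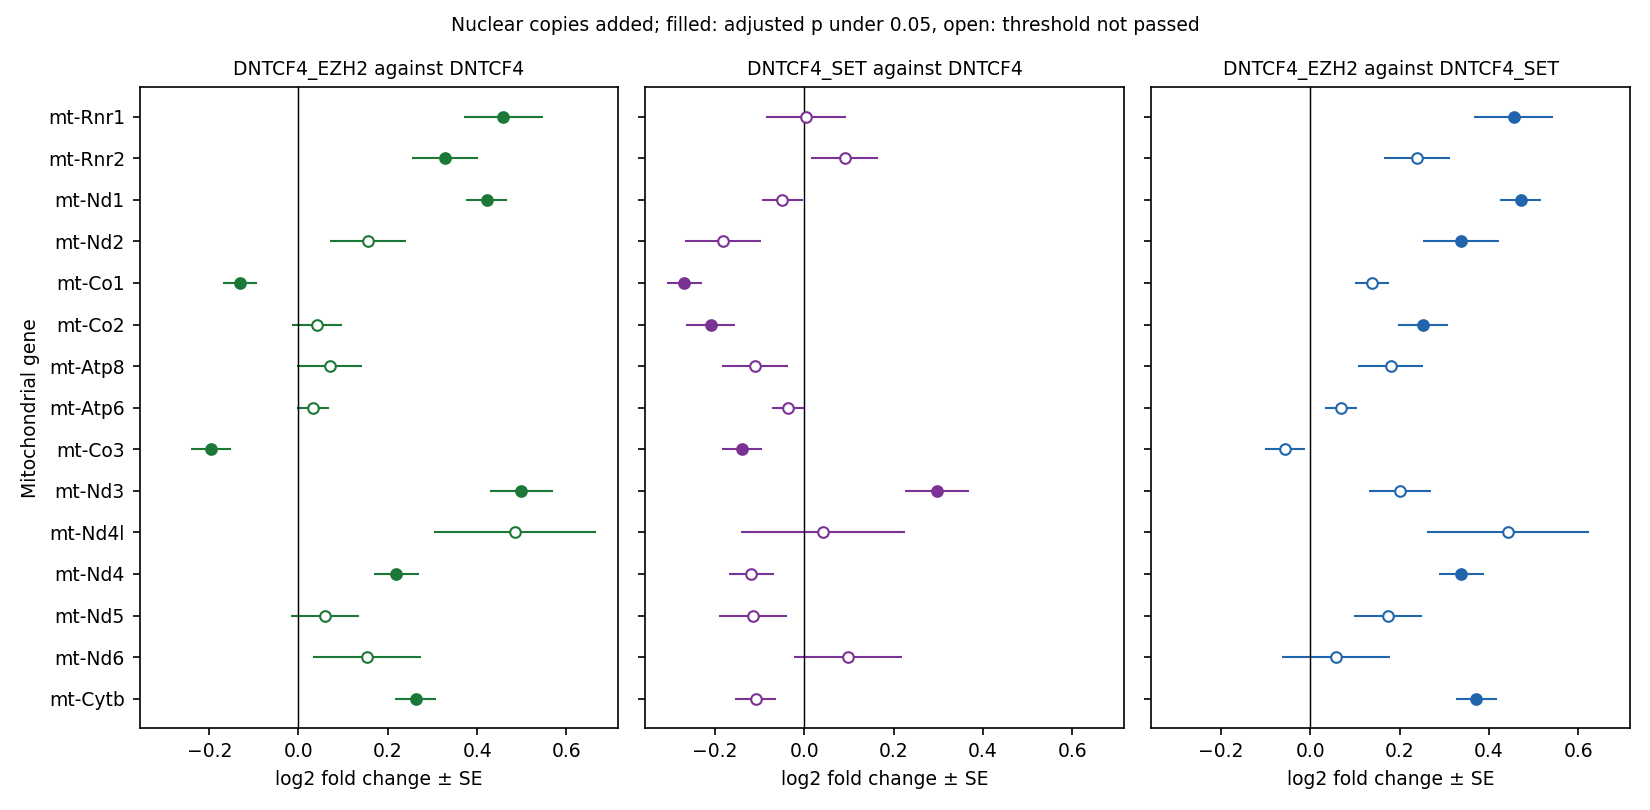
Log2 fold change ± SE (horizontal axis, edgeR, 3 libraries a group, nuclear copies added) of the 15 detected mitochondrial genes in 3 comparisons, filled where the adjusted p is under 0.05. With EZH2 added, 6 genes rose and mt-Co1 and mt-Co3 fell; with SET added, mt-Nd3 rose and mt-Co1, mt-Co2 and mt-Co3 fell; EZH2 against SET had 6 genes higher and none lower.

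The same values can be summed by complex, as CPM with copies added. The 7 complex I genes together had 5827, 5800 and 5813 CPM in DNTCF4_EZH2, 4694, 4869 and 4433 CPM in DNTCF4_SET, 4306, 5521 and 5096 CPM in DNTCF4, and 6355, 6617 and 6529 CPM in Vector libraries. Vector libraries were the highest, and DNTCF4 and DNTCF4_SET libraries overlapped. The 3 complex IV genes averaged 9784 ± 193 CPM in DNTCF4_EZH2, 8912 ± 228 CPM in DNTCF4_SET, 10597 ± 654 CPM in DNTCF4 and 10372 ± 159 CPM in Vector libraries (SD, n = 3 each). Without mt-Co1, the other complex IV genes had 2122 ± 13.7, 1948 ± 60.3, 2206 ± 197 and 2715 ± 48.5 CPM in that order of groups. The sums were not tested.

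Of all counts, mitochondrial genes held 1.63% to 1.67% in DNTCF4_EZH2, 1.38% to 1.43% in DNTCF4_SET, 1.56% to 1.6% in DNTCF4 and 1.73% to 1.74% in Vector libraries. With copies the means were 1.98% ± 0.0155, 1.71% ± 0.0384, 1.9% ± 0.0274 and 2.15% ± 0.012 in that order (SD, n = 3 each). None of the groups overlapped in either version, and the order was the same. In bulk RNA, fewer mitochondrial transcripts per cell and more nuclear transcripts per cell give the same share and cannot be told apart.

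**Figure D5:**
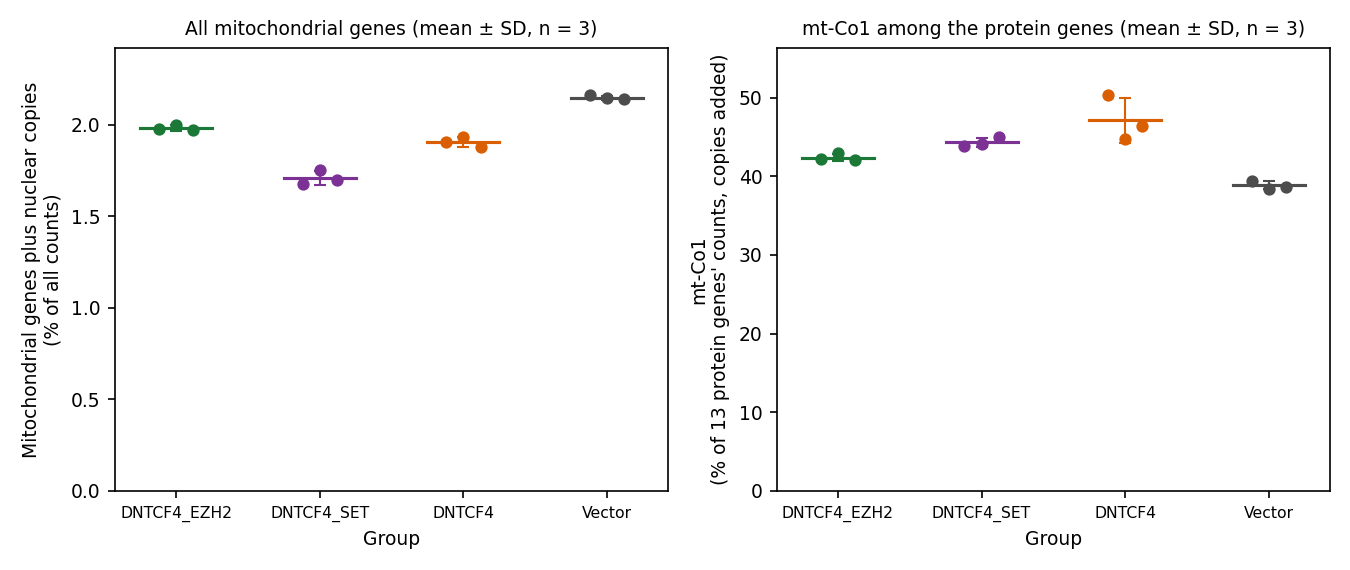
Left, counts on mitochondrial genes and their nuclear copies as % of all counts; right, counts on mt-Co1 as % of the counts on the 13 protein genes with copies, both for each library with mean ± SD (n = 3), from DNTCF4_EZH2 to Vector. DNTCF4_SET libraries hold the lowest share on the left (1.68% to 1.75%), and on the right DNTCF4 has the highest mean (47.1%) and Vector the lowest (38.8%).

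The proportion of mt-Co1 among protein genes differed between all groups in mean. It was 42.4% ± 0.484 in DNTCF4_EZH2, 44.3% ± 0.543 in DNTCF4_SET, 47.1% ± 2.88 in DNTCF4 and 38.8% ± 0.513 in Vector libraries (SD, n = 3 each). DNTCF4 replicate 2, at 44.7%, lay within the DNTCF4_SET range of 43.9% to 44.9%, so those groups overlapped. The ratio of mt-Rnr1 to mt-Rnr2 counts was 0.317 to 0.426 in DNTCF4_EZH2, 0.306 to 0.322 in DNTCF4_SET, 0.324 to 0.348 in DNTCF4 and 0.407 to 0.427 in Vector libraries, so DNTCF4_SET and DNTCF4 lay below Vector and DNTCF4_EZH2 overlapped it.

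The nuclear partners of these genes were taken from 12 lists, chosen with results of these data known. In DNTCF4 against Vector, 31 of 36 nuclear complex I subunits fell and 0 rose, with a median log2 change of -0.29. For ATP synthase subunits 14 of 18 fell and 0 rose (median -0.23), for complex III 6 of 9 fell, for complex IV 7 of 11 and for complex II 2 of 4, again with 0 rises. When DNTCF4 replicate 1 was left out, the falls were 34, 14, 6, 7 and 1 in that order, beside 31% of all genes, again with 0 rises (0 at an unadjusted p under 0.05). In none of these 5 lists was a subunit higher at an unadjusted p under 0.05 in edgeR, and DESeq2 and limma called 0 rises too. Beside these stand 29.5% rises and 28% falls among all genes, and 30.7% falls among nuclear genes of up to 1000 bases. How many of the subunits are that short was not counted.

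Ndufb11, an accessory subunit of complex I, had the smallest p of its list and averaged 23.9 ± 0.0801 CPM in DNTCF4 and 44.4 ± 3.25 CPM in Vector libraries (SD, n = 3 each; log2 change -0.89, edgeR adjusted p = 1.51e-08). Uqcr10, a small subunit of complex III, averaged 49.7 ± 0.710 CPM in DNTCF4 and 74.9 ± 3.61 CPM in Vector libraries, and Atp5g1, which encodes a subunit of the ATP synthase ring, 27.4 ± 2.52 and 43.5 ± 1.63 CPM in that order. Atp5b, the catalytic beta subunit, fell less (477 ± 10.1 in DNTCF4 and 588 ± 12.3 CPM in Vector libraries, log2 change -0.30). Of complex IV, Cox6b1 fell by 0.30 on the log2 scale and Cox5b by 0.29.

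Of mitochondrial ribosomal proteins of the large subunit, 26 of 49 (53.1%) fell and 2 rose in DNTCF4 against Vector, and of the small subunit 17 of 29 (58.6%) fell and 2 rose, beside the 28% falls and 29.5% rises among all genes. When DNTCF4 replicate 1 was left out, 27 fell and 3 rose of the large subunit, and 17 fell and 0 rose of the small one (0 also at an unadjusted p under 0.05 in edgeR). Mrpl57 fell by 0.84 and Mrps15 by 0.47 on the log2 scale, while Mrpl49 rose (log2 change 0.40). Among translation factors 3 of 14 fell and 0 rose (1 higher at an unadjusted p under 0.05), and among aminoacyl-tRNA synthetases 6 of 19 fell and 1 rose. These shares of falls, 21.4% and 31.6%, lie near that of all genes, and without replicate 1 the falls were 4 and 6.

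The genes that make and handle mitochondrial RNA were mixed. In the list for transcription and replication of the mitochondrial genome, 4 of 17 (23.5%) rose and 3 (17.6%) fell, shares at or below those of all genes (29.5% and 28%), and without DNTCF4 replicate 1 3 rose and 4 fell. Twnk, the replicative helicase, rose (37.3 ± 0.351 CPM in DNTCF4 and 28.6 ± 0.21 CPM in Vector libraries, SD, n = 3 each, log2 change 0.38), and Tefm, the elongation factor of mitochondrial transcription, fell at low levels (1.67 ± 0.334 CPM in DNTCF4 and 2.7 ± 0.415 CPM in Vector libraries, log2 change -0.70). Tfb1m, a methyltransferase of the small ribosomal RNA, fell as well (log2 change -0.74). Of 30 genes of RNA processing, stability and decay, 3 (10%) rose and 10 (33.3%) fell (2 and 10 without replicate 1), led by Rexo2, an oligoribonuclease (log2 change -0.53), and Hsd17b10, a subunit of the mitochondrial RNase P (-0.37). Of 12 regulators of biogenesis, 3 rose and 2 fell (4 and 2 without replicate 1). Esrra, a nuclear receptor, rose (0.48) with 2 others, and Ppargc1a, a coactivator, fell to 1.49 ± 0.231 CPM in DNTCF4, against 3.33 ± 0.768 CPM in Vector libraries (log2 change -1.15, edgeR adjusted p = 6.3e-05), as did Tfeb (-0.50).

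With a second construct, calls in the respiratory lists were nearly all rises. In DNTCF4_EZH2 against DNTCF4, 6 of 36 complex I, 2 of 4 complex II, 2 of 9 complex III, 5 of 11 complex IV and 4 of 18 ATP synthase subunits rose and 0 fell in any of the 5 lists (1, of complex I, at an unadjusted p under 0.05). As shares these rises are 16.7%, 50%, 22.2%, 45.5% and 22.2%, beside 13% of all genes, so that of complex I lies near the background, and the other lists are short. In DNTCF4_SET against DNTCF4 the rises were 8, 1, 2, 5 and 4 of the same totals (22.2%, 25%, 22.2%, 45.5% and 22.2%), beside 12.7% of all genes. Here 2 complex I subunits, Ndufb2 and Ndufab1, fell, calls that neither DESeq2 nor limma made and that did not hold without DNTCF4 replicate 1 (edgeR adjusted p = 0.0617 and 0.0694). Without that library the rises were 7, 3, 3, 5 and 6 with EZH2, beside 14.4% of all genes, and 10, 3, 2, 5 and 6 with SET, beside 15.5%. With SET, 1 complex III subunit (11.1%) then fell, beside 15.4% falls among all genes. Uqcr10 rose in both (log2 change 0.27 with EZH2 and 0.23 with SET). These comparisons share their DNTCF4 libraries.

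Among genes of mitochondrial RNA processing, stability and decay, the calls with either second construct were falls. In DNTCF4_EZH2 against DNTCF4, 9 of 30 (30.0%) fell, 0 rose and 21 did not pass, with a median log2 change of -0.16, beside 12.5% falls among all genes. In DNTCF4_SET against DNTCF4 16 of 30 (53.3%) fell, 0 rose and 14 did not pass, with a median of -0.20, beside 13.3%. At an unadjusted p under 0.05 in edgeR 0 were higher in either comparison, and neither DESeq2 nor limma called a rise. Pnpt1, the polynucleotide phosphorylase of mitochondrial RNA decay, averaged 27.1 ± 0.538 CPM in DNTCF4_EZH2, 28.0 ± 1.19 CPM in DNTCF4_SET and 40.9 ± 2.81 CPM in DNTCF4 libraries (SD, n = 3 each). Its log2 change was -0.59 with EZH2 (edgeR adjusted p = 1.14e-06) and -0.55 with SET (adjusted p = 3.75e-06). Fastkd3, an RNA-binding protein of the FASTK family, fell by 0.28 and 0.33 on the log2 scale in the same comparisons. Without DNTCF4 replicate 1, 11 and 15 of these 30 genes fell, beside 14.2% and 15.4% of all genes.

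The other lists are to be read beside 13% rises and 12.5% falls among all genes with EZH2, and 12.7% and 13.3% with SET, and several of their shares lie near these. Of the aminoacyl-tRNA synthetases, 5 of 19 (26.3%) fell and 3 (15.8%) rose with EZH2, and 6 (31.6%) fell with SET, among them Mars2 (log2 change -0.65) and Cars2 (-0.56). Lars2, the mitochondrial leucyl-tRNA synthetase, rose with EZH2 (log2 change 1.15, SE 0.37, edgeR adjusted p = 0.0331) with a spread of 183 ± 125 CPM in DNTCF4_EZH2, against 82.7 ± 15 CPM in DNTCF4 libraries. Of small-subunit ribosomal proteins 5 of 29 (17.2%) fell with EZH2 and 7 (24.1%) with SET, and of large-subunit ones 3 of 49 (6.12%) rose and 4 (8.16%) fell with EZH2 and 3 rose and 3 fell with SET. Of the translation factors 1 of 14 fell with each, Mtif2 with EZH2 (adjusted p = 0.0573 in edgeR without DNTCF4 replicate 1) and Tsfm with SET. Of the list for transcription and replication 1 of 17 rose and 2 (11.8%) fell with EZH2, and 4 (23.5%) fell with SET, among them Polg, the replicative polymerase (log2 change -0.22). Of the regulators of biogenesis 3 of 12 (25%) fell with each, including Myc and Pprc1. Without DNTCF4 replicate 1 the falls were 5 synthetases, 6 small-subunit and 6 large-subunit proteins, 1 translation factor, 3 genes of transcription and replication and 5 regulators with EZH2. With SET they were 6, 6, 6, 1, 5 and 4 in that order. Between DNTCF4_EZH2 and DNTCF4_SET, the genes of the 12 lists that were higher included Cars2 and Mrps6, and Esrra was lower. No subunit of the respiratory complexes or the ATP synthase passed there in edgeR, with 1 higher and 4 lower at an unadjusted p under 0.05, while DESeq2 called 1 complex IV subunit lower.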

How the data were processed

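Gene-level RNA-seq of 12 libraries was used. Per the submitters' processing notes, the build was GRCm38 and the tools were RSEM 1.3.3, STAR 2.7.8a, DESeq2, cutadapt 2.3 and FastQC 0.11.8. The deposited expected counts, made by the authors, are all whole numbers and were used as deposited. The deposited log2-scale values (regularised log, by the authors) were used in 1 alternative with limma 3.58.1.

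edgeR 4.0.16 (R 4.3.3) was fitted once to all 12 libraries with TMM factors and filterByExpr (minimum count 10, minimum total 15), and its quasi-likelihood test was adjusted by Benjamini-Hochberg over all 15052 genes tested, at 0.05. All adjusted p-values in the text are from edgeR unless another tool is named. Changes are log2 ratios of the first group over the second, and CPM are TMM-scaled. Depth was 23597545 to 33999982 counts, and the biological coefficient of variation was 5.17%. Counts without molecular identifiers may not be independent molecules, so floors of 3 counts cover counting error only. The fits were tested on simulated data with a common dispersion, no outlying library and no reads shared with copies. That test cannot speak for the effects of DNTCF4 replicate 1 or of shared reads.

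Nuclear copies were found with blastn 2.17.0 among GENCODE M21 transcripts (at least 95% identity over 100 bases), and their counts were added to the mitochondrial gene before a further fit of 15043 genes. Copies that are not annotated were not searched. All 15 detected genes are described, and of each nuclear list up to 3 members per direction and comparison with the smallest p could be named; some of these are counted but not reported by name here. The members, lists and tests were chosen with earlier results of these data known. Alternatives changed the scaling, test, filter, libraries and replicate block; those on sums with copies and the nuclear lists without DNTCF4 replicate 1 were chosen after seeing the data. Deviations of same-numbered libraries from their group means (log2 CPM of the genes tested) correlated at -0.0906 to 0.151 over 18 pairs, so the numbers were not taken as pairs. Replicate pairs differed beyond counting noise in all 12 cases (chi-square per degree of freedom 2.55 to 19).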

Additional observations from a re-analysis of the deposited data

How the results depend on the processing

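As deposited, single genes called in the report kept direction and call in 144 results without 1 library and lost the call in 18. Under the other alternatives 235 were kept, 7 lost the call and 1 reversed. The reversal was mt-Nd3 in DNTCF4 against Vector (0.81 as deposited, -0.34 with nuclear copies added), where the copy held most counts. With copies added, only the calls of genes that have a nuclear copy were followed. Of these results, 101 were kept and 19 lost without 1 library, and 38 were kept and 2 lost otherwise.

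Counts of the 15 genes that moved include the following, and the cause was not tested. With no filter on low counts, DNTCF4_EZH2 against DNTCF4 had 8 higher and 3 lower, DNTCF4_SET against DNTCF4 had 8 lower, and DNTCF4_EZH2 against DNTCF4_SET had 11 higher. With only the 6 libraries compared, DNTCF4_EZH2 against DNTCF4 had 0 lower and DNTCF4_EZH2 against DNTCF4_SET 11 higher. With copies added, 1 was higher and 13 lower in DNTCF4 against Vector, and 6 higher and 2 lower in DNTCF4_EZH2 against DNTCF4. There were 1 higher and 3 lower in DNTCF4_SET against DNTCF4, and 6 higher in DNTCF4_EZH2 against DNTCF4_SET.

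Leaving out each library in turn gave 1 to 2 higher in DNTCF4 against Vector (1 without Vector replicate 1), 0 to 1 lower in DNTCF4_EZH2 against DNTCF4 (0 without DNTCF4 replicate 1, DNTCF4_EZH2 replicate 1 or DNTCF4_EZH2 replicate 3), and 0 to 1 higher and 2 to 8 lower in DNTCF4_SET against DNTCF4 (1 and 8 without DNTCF4 replicate 1). With copies added the ranges were 1 to 2 lower in DNTCF4_EZH2 against DNTCF4, and 1 to 2 higher and 2 to 8 lower in DNTCF4_SET against DNTCF4. Without DNTCF4 replicate 1, 12 were lower in DNTCF4 against Vector as deposited and 14 with copies added. The range for DNTCF4_EZH2 against DNTCF4_SET is not given here, and there mt-Nd2 and mt-Co1 lost their calls whichever library was left out.

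The replicate block gave 2 higher and 9 lower in DNTCF4 against Vector, 5 and 1 in DNTCF4_EZH2 against DNTCF4, 0 and 3 in DNTCF4_SET against DNTCF4 and 6 and 0 in DNTCF4_EZH2 against DNTCF4_SET. Under the block mt-Co1 in the last comparison (log2 difference 0.14, adjusted p = 0.0563) and mt-Co2 with copies in DNTCF4 against Vector (-0.14, adjusted p = 0.0501) were no longer called. Scaling from nuclear genes alone ended the call of mt-Co3 with its copy in DNTCF4_SET against DNTCF4 (-0.12, adjusted p = 0.0569), limma that of mt-Nd2 (0.22, adjusted p = 0.0598) and DESeq2 size factors that of mt-Co1 (0.13, adjusted p = 0.0511) in DNTCF4_EZH2 against DNTCF4_SET. Low counts limit what can be said of mt-Nd3 as deposited, with 633 counts over 12 libraries and 17144 on its copy. The same holds for the transfer RNA genes, which had no count.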
